A study of Mus musculus with 4 samples.

Results

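The major histocompatibility complex (MHC) class II genes were followed in the mesenchymal stromal cells (MSC) of mouse gut. The members were *H2-Aa*, *H2-Ab1* and *H2-Eb1*, which encode chains of the class II dimers, *Cd74*, which encodes the invariant chain, *H2-DMa*, which encodes a chain of the peptide-loading complex H2-M, and *Ciita*, which encodes the class II transactivator. They were named by symbol, though with earlier results of these data known, and make up 6 of the 28692 genes in the count tables. MSC had been isolated from the lamina propria (LP) of small intestine and colon, with 2 libraries of each, from untreated female C57BL6/Nrj mice of 8 to 10 weeks. The muscle layer had been stripped, and 3 mice were pooled in each of 2 experiments, so a library stands for a pool and not for an animal. The sort kept live integrin β1+ cells that lacked CD45, Ter119, CD31, EpCAM, L1CAM and BP3, markers of hematopoietic, erythroid, endothelial, epithelial, glial and lymphoid tissue-associated stromal cells. After removal of low-quality barcodes and doublets, 30697 of 34983 barcodes were used, of which 29665 were stromal by marker genes.

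MHC class II molecules are dimers of an α and a β chain that present peptides to CD4+ T cells. The I-A dimer of the mouse is built from the products of *H2-Aa* and *H2-Ab1*, and the β chain of the I-E dimer is encoded by *H2-Eb1*. The invariant chain holds the dimer together and blocks its groove until H2-M exchanges the remnant for a peptide. *Ciita* is the master regulator of this gene group, which is constitutive in dendritic cells, macrophages and B cells and can be induced in many stromal and endothelial cells by interferon-γ. The C57BL/6 background is known to lack a functional *H2-Ea* gene and therefore surface I-E.

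In GRCm38 with the GENCODE vM21 annotation, *H2-Ab1* lies on chromosome 17 at positions 34257689 to 34269419 on the plus strand. *H2-Aa* follows at 34282744 to 34287823 on the minus strand and *H2-Eb1* at 34305867 to 34316674 on the plus strand. *H2-DMa* lies at 34119541 to 34139101 of the same chromosome. RefSeq promoter windows (GRCm38.p6) could be matched for 3 of the 6 members, and those of *H2-Aa* and *H2-Eb1*, the chain genes whose levels followed that of *Cd74* most closely, are shown as the 250 bases before the start, 5′ to 3′ on the gene's strand, with the Y box in capitals.
H2-Aa, chr17:34287824-34288073, minus strand: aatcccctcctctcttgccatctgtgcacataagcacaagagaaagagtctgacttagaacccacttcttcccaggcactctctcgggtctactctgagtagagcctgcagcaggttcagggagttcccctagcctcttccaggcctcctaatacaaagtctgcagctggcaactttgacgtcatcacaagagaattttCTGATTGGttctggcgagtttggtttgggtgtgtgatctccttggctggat
H2-Eb1, chr17:34305617-34305866, plus strand: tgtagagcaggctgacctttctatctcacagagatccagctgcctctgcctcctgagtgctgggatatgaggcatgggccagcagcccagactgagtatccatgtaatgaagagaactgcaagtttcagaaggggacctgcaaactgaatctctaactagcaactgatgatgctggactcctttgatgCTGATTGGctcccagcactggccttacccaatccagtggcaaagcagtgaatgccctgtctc
The Y box, the element bound by the factor NF-Y, was searched as CTGATTGG on both strands. It began 51 bases before the start in *H2-Aa* and 62 bases before it in *H2-Eb1*, and it was found in 1258 of 32851 such windows (3.83%). Neither of the *H2-DMa* windows held these letters.

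The libraries differed in depth, with 2061 and 16795 barcodes and 14341443 and 45640122 UMIs (unique molecular identifiers, each a counted transcript) in small intestine replicates 1 and 2, and 2590 and 13537 barcodes and 22076000 and 52269372 UMIs in colon replicates 1 and 2. Cell Ranger 3.0.2 had made the replicate 1 tables and 3.1.0 the replicate 2 tables, so version, depth and replicate number cannot be told apart. Libraries shared at most 69 barcodes (0.51% of the smaller library). Cells were classed by marker genes, none of which was a member. Fibroblasts (FB) comprised PDGFRαhi FB (616 and 3158 cells in colon, 163 and 1463 in small intestine), CD81+ FB (238 and 2006, 283 and 2647) and the remaining FB (880 and 6024, 737 and 10023). Smooth muscle cells (SMC) numbered 290 and 773 in colon and 85 and 134 in small intestine, and pericytes 20 to 47 per library. All 8 PDGFRαhi markers and all 7 SMC and pericyte markers were detected in their class in every library. Classes are ranges of a marker score: of the 163 PDGFRαhi FB of small intestine replicate 1, 126 lay near the gate's edge, against 147 of 616 and 524 of 3158 in colon.

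Class II transcripts were sparse in MSC, and the members did not move as a unit. Levels are given as CPM, the UMIs of a gene in a class per 1000000 UMIs of that class in the library. Since UMIs tag transcript ends, they were not divided by length. Over all stromal cells, *Cd74*, on chromosome 18 at 60803848 to 60812652, was at 16.9 and 5.38 CPM in colon replicates 1 and 2 and at 40.9 and 10.6 CPM in small intestine replicates 1 and 2. *H2-Ab1* was at 24.6 and 22.2 CPM in colon and at 9.50 and 4.97 CPM in small intestine, so that colon and small intestine did not overlap for *H2-Ab1* and did overlap for *Cd74*. With 2 libraries a side such an order can arise by chance, and the share of all genes that separate so was not computed. Such orders are descriptions, here and below. *H2-Aa* lay between 1.90 and 11.2 CPM, *H2-Eb1* between 3.44 and 11.4 CPM and *H2-DMa* between 2.03 and 3.46 CPM. *Ciita*, on chromosome 16 at 10480059 to 10528418, gave 1 UMI among all 29665 stromal cells, in the remaining FB of small intestine replicate 2.

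PDGFRαhi FB of the colon carried *H2-Ab1* with little of its partners. In this class *H2-Ab1* had 324 and 734 UMIs in the 2 colon libraries, or 48.5 CPM (exact 95% Poisson interval 43.3 to 54.0) and 57.4 CPM (53.3 to 61.7). In small intestine it had 17 and 6 UMIs, or 12.01 CPM (6.997 to 19.2) and 1.84 CPM (0.677 to 4.01). Both colon libraries stood above both small intestine libraries. *Cd74* in the same cells was at 5.98 and 3.67 CPM in colon and at 60.1 and 7.07 CPM in small intestine, the opposite order. In small intestine replicate 1 the richest 2 cells held 49 of the 85 *Cd74* UMIs and, for *H2-Ab1*, 9 of the 17. *H2-Aa*, which encodes the α chain that pairs with the *H2-Ab1* product, was at 3.44 and 1.41 CPM in colon and 15.5 and 2.77 CPM in small intestine. *H2-Eb1* was at 3.14 and 1.56 CPM in colon and 14.1 and 3.38 CPM in small intestine. *H2-DMa* stayed at or below 1.84 CPM in all 4 libraries, and *Ciita* was at 0 UMIs in all 4. Intervals here and below cover counting error only. The GENCODE model of *H2-Ab1* begins 5538 bases before that of RefSeq (34263227 on chromosome 17) and reaches into *Gm20506*, a RefSeq non-coding RNA at 34247335 to 34259341, which had 0 UMIs in this class in all 4 libraries. *Gm20506* is in the count tables but not in GENCODE vM21, so the model of *H2-Ab1* that was counted may differ from the one given. The count tables hold no read positions, so which part of the locus gave the *H2-Ab1* UMIs was not tested.

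**Figure D1:**
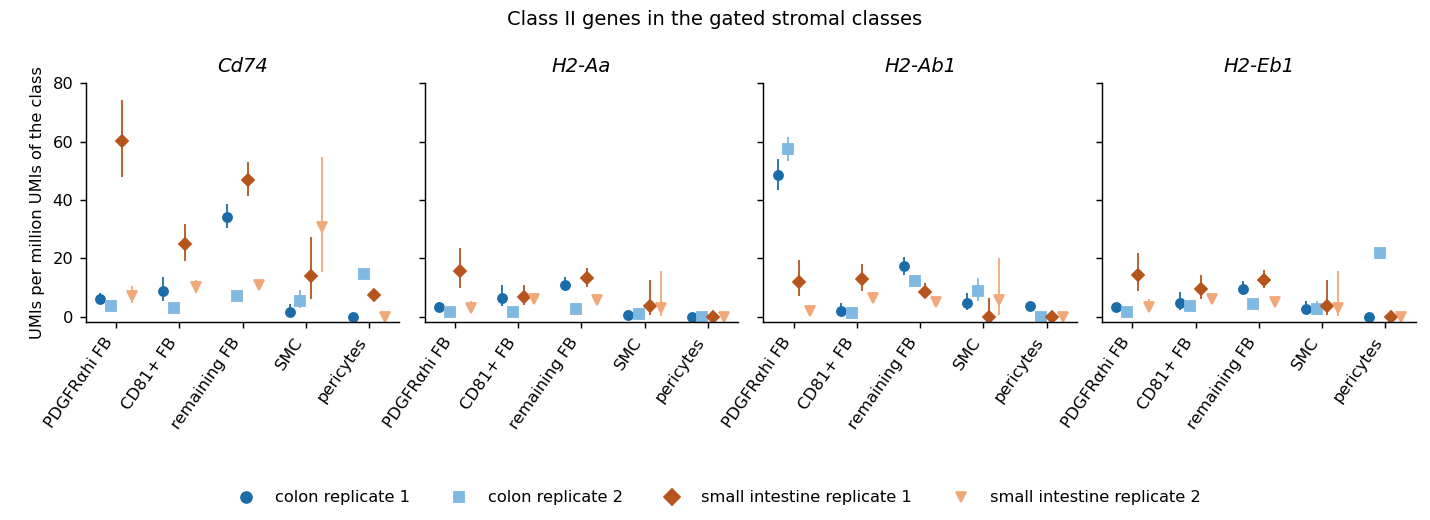
Level of the class II genes in CPM by cell class, with a point for each library and bars for exact 95% Poisson intervals (none drawn for pericytes). In PDGFRαhi FB the colon libraries stand at 48.5 and 57.4 CPM of *H2-Ab1* and the small intestine libraries at 12.01 and 1.84 CPM, while *Cd74* has its highest value there in small intestine replicate 1 (60.1 CPM).

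*H2-Ab1* UMIs were found in 28.6% and 17.7% of colonic PDGFRαhi FB and in 3.68% and 0.410% of those of small intestine. Cells were deeper in replicate 1, with median UMIs of 10374 and 3868 in colon and 9129 and 2123 in small intestine. At a common 2000 UMIs per cell, which left out 7, 266, 8 and 644 cells, the shares were 7.89% and 9.36% in colon and 2.03% and 0.526% in small intestine. SMC, which are not known to make class II constitutively, served as the background: 2.76% and 2.59% of colonic SMC had an *H2-Ab1* UMI (median UMIs 8254 and 2983), and 0.885% and 1.33% did so at 2000 UMIs. The share in colonic PDGFRαhi FB lay above this background in both libraries. In small intestine 0% and 1.49% of SMC had one, and the PDGFRαhi share lay above that of SMC in replicate 1 and below it in replicate 2.

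The make-up of the class II UMIs in colonic PDGFRαhi FB was unlike that in immune cells, by intervals that do not overlap. *H2-Ab1* held 79.4% (exact 95% interval 75.2 to 83.2) and 89.6% (87.3 to 91.6) of the UMIs of *Cd74*, *H2-Aa*, *H2-Ab1* and *H2-Eb1* in the colonic class. It held 10.7% in the 36 immune cells of small intestine replicate 1, 22.1% in the 4 of replicate 2 and 11.9% in the 2 of colon replicate 2. In cells that carried both immune and FB markers, which were kept out of the stromal classes, it held 10.45% and 20.3% in colon and 14.7% and 17.9% in small intestine. In PDGFRαhi FB of small intestine it held 11.8% (7.03 to 18.2) and 12.2% (4.63 to 24.8), from 144 and 49 UMIs. Expressed as a ratio, the colonic class had 8.10 and 15.6 *H2-Ab1* UMIs per *Cd74* UMI and the small intestinal class 0.2 and 0.261.

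**Figure D2:**
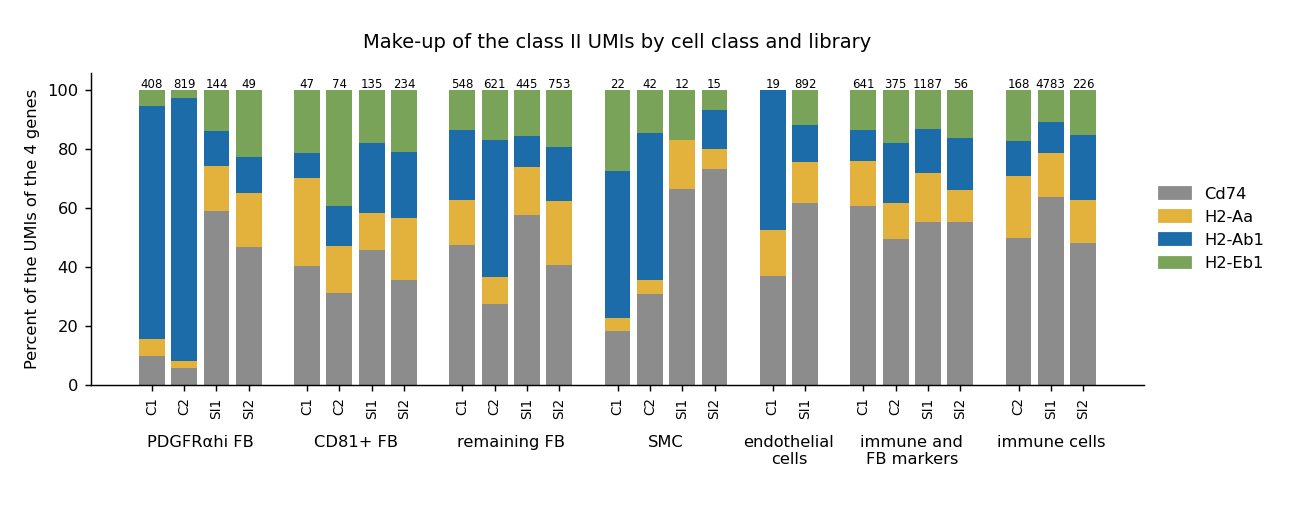
Share of *Cd74*, *H2-Aa*, *H2-Ab1* and *H2-Eb1* among the UMIs of these 4 genes (percent, stacked bars), by class and library (C1 and C2, colon replicates 1 and 2; SI1 and SI2, small intestine replicates 1 and 2), for bars of at least 10 UMIs, with the UMI total above each bar. *H2-Ab1* takes 79.4% and 89.6% of the bar in colonic PDGFRαhi FB and 10.7% in the immune cells of SI1.

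Single cells showed the same make-up. Of the 176 *H2-Ab1*+ PDGFRαhi FB of colon replicate 1, 14 (7.95%) also had a *Cd74* UMI, as did 9 of 559 (1.61%) in colon replicate 2. All 19 *H2-Ab1*+ immune cells of small intestine replicate 1 had *Cd74*. A single *H2-Ab1* UMI was present in 88 of the 176 and 427 of the 559 positive colonic PDGFRαhi FB, and the highest had 6 and 7. The 1% of cells richest in *H2-Ab1* held 10.8% and 14.6% of its UMIs in this class, so the signal was spread over many cells. The richest 1% of the colonic remaining FB held 32.1% and 36.5% of their *H2-Ab1* UMIs. In the remaining FB of small intestine replicate 1 the richest 1% held 46.7% of the *Cd74* UMIs. Such shares also rise as the UMIs of a gene become fewer, so they are descriptions.

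Colonic PDGFRαhi FB fell into 4 main clusters, which differed in *H2-Ab1*. It was at 119 and 111 CPM (colon replicates 1 and 2) in cluster 4 and at 66.8 and 76.0 CPM in cluster 6, against 27.3 and 30.6 CPM in cluster 5 and 15.5 and 27.3 CPM in cluster 12. *Cd74* was at or below 9.29 CPM in all of them. Since the clusters were made from the same cells, these are descriptions without a test. Genes richer in *H2-Ab1*+ than in *H2-Ab1*- PDGFRαhi FB of both colon libraries, picked after their values had been seen, included *Fgf7*, a growth factor for epithelial cells (403 against 155 CPM in replicate 1, 286 against 124 CPM in replicate 2), *Plau*, the urokinase plasminogen activator (424 against 201 and 244 against 116 CPM), and *Il1rl1*, the receptor of IL-33 (239 against 114 and 192 against 86.3 CPM). *Wif1*, a WNT inhibitor, was poorer in them (18.6 against 132 and 16.3 against 76.8 CPM). *H2-Ab1*+ cells were also deeper, with a median of 12574 and 4880 UMIs.

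The other FB had less *H2-Ab1* and a larger share of *Cd74*. In the remaining FB *Cd74* was at 34.3 and 7.16 CPM in colon and 46.8 and 10.9 CPM in small intestine, with replicate 1 above replicate 2 in both intestines. *H2-Ab1* was at 17.2 and 12.1 CPM in colon and 8.57 and 4.95 CPM in small intestine. It held 23.9% and 46.4% of the 4-gene UMIs in colon and 10.6% and 18.5% in small intestine. In CD81+ FB *H2-Ab1* had the reverse order, with 1.84 and 1.21 CPM in colon and 12.8 and 6.29 CPM in small intestine. *Cd74* in CD81+ FB was at 8.75 and 2.78 CPM in colon and 24.8 and 10.0 CPM in small intestine. Thus, in both *Cd74* and *H2-Ab1* the CD81+ FB of the 2 colon libraries lay below those of the 2 small intestine libraries.

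SMC and pericytes had few class II UMIs. *H2-Ab1* in SMC was at 4.56 and 8.63 CPM in colon and at 0 and 5.57 CPM in small intestine, where 0 among 575904 UMIs, a floor of 3 counts, allows up to 5.21 CPM. *Cd74* in SMC was at 1.66 and 5.34 CPM in colon and 13.9 and 30.6 CPM in small intestine, the latter from 11 UMIs in 3 cells. Pericytes had 0 to 3 UMIs of any member in any library. Among FB and SMC of the colon the order of *H2-Ab1* was PDGFRαhi FB, remaining FB, SMC and CD81+ FB in both libraries, and the libraries of neighbouring classes did not overlap. In small intestine CD81+ FB led in both libraries and lay above SMC, while every other pair of classes overlapped.

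**Figure D3:**
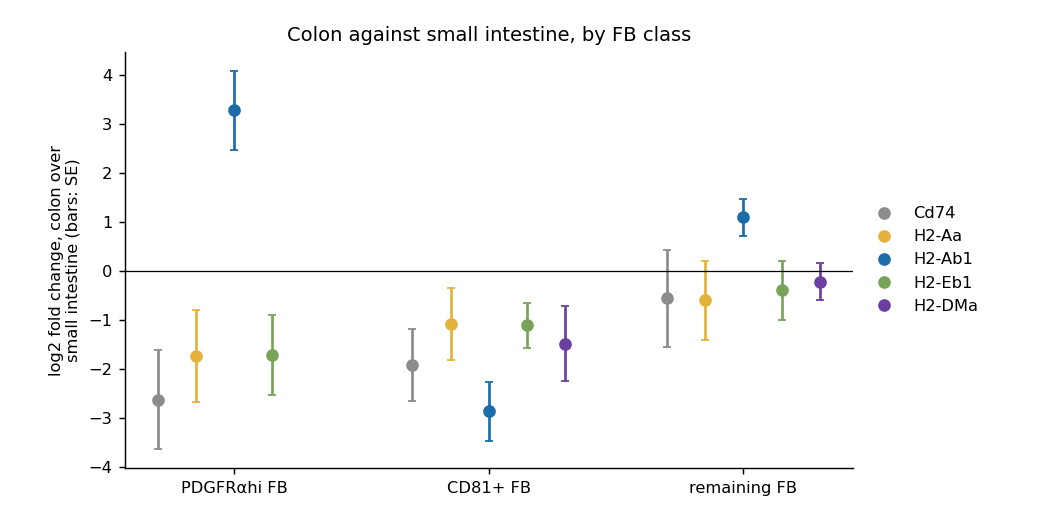
Log2 fold change of the members tested, colon over small intestine, in 3 FB classes (edgeR, 2 libraries per intestine, bars show the SE). *H2-Ab1* lies at 3.28 in PDGFRαhi FB, -2.86 in CD81+ FB and 1.10 in the remaining FB, and the other members lie below 0 in each class.

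To ask which of these differences exceeded the spread between libraries, UMIs were summed per library and class and tested with the quasi-likelihood test of edgeR across all genes. A gene was called where its p-value after Benjamini-Hochberg adjustment was below 0.05 and it changed by more than 1.5 on the log2 scale. Between colon and small intestine, 0 of 4 members tested were called in PDGFRαhi FB, where 1.32% of all genes were, and 2 had an unadjusted p under 0.05. The log2 fold change of *H2-Ab1* was 3.28 (SE 0.81, edgeR adjusted p = 0.161) and that of *Cd74* was -2.62 (SE 1.01, edgeR adjusted p = 0.392). *H2-Aa* (-1.72) and *H2-Eb1* (-1.70) also had negative values. With the replicate number as a block all 4 members tested were called, with 931 genes in all, but the labels do not say that the number pairs the libraries. The call of *H2-Ab1* depended on the tool and on which cells entered. Without cells that held a UMI of any of 25 immune genes (65 of 163 and 178 of 1463 in small intestine, 17.2% and 5.35% of cells in colon) its log2 fold change was 4.40 with an edgeR adjusted p of 0.04012. With DESeq2 it was 3.18 with 0.00112. Without small intestine replicate 1 it was 4.96, in a fit with 1 small intestine library. Where Leiden clusters replaced the gates, *H2-Ab1* was at 1.21 with an edgeR adjusted p of 0.873. The *Cd74* level of small intestine replicate 1 was then 227 CPM. Over all libraries, 9 cells with immune and FB markers and 450 remaining FB entered the class, and 348 of its cells became remaining FB. Which of these shifts changed the value was not tested.

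In CD81+ FB 0 of 5 members tested were called (0.226% of all genes) and 2 had an unadjusted p under 0.05, with *H2-Ab1* at -2.86 (SE 0.60, edgeR adjusted p = 0.226) and *Cd74* at -1.91 (SE 0.73, edgeR adjusted p = 0.563). DESeq2 called 1, *H2-Ab1*, at -2.88. In the remaining FB 0 of 5 were called by either tool (0.346% of all genes by edgeR) and 1 had an unadjusted p under 0.05, *H2-Ab1* at 1.10 (SE 0.37, edgeR adjusted p = 0.423). In SMC only *Cd74* had enough UMIs to be tested, and it was not called (0.233% of all genes, log2 fold change -2.56, SE 0.76, edgeR adjusted p = 0.360, unadjusted p = 0.0159). No member could be tested in pericytes.

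Whether the colon effect itself differed between PDGFRαhi FB and the remaining FB was tested as a class by intestine term with the library as a block. *H2-Ab1* was the 1 member of 5 tested that was called, against 3.78% of all genes, with a difference of 2.44 on the log2 scale (SE 0.55, edgeR adjusted p = 0.0372). Without each library in turn the difference ranged from 1.64 to 3.53, in fits with 1 library in an intestine. It had an edgeR adjusted p of 0.0610 with doublets kept and of 0.566 with clusters in place of gates. The difference of *Cd74* was -1.63 (edgeR adjusted p = 0.292) and that of *H2-Eb1* was -1.19 (edgeR adjusted p = 0.0998). In the same test 2 of 10 tested genes of the 25 immune markers were called, *Lyz2* at -2.97 and *Cd52* at -2.59, so these transcripts of myeloid and lymphoid cells moved with *Cd74* and against *H2-Ab1*.

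Against the remaining FB over all 4 libraries, 0 of 5 members were called in PDGFRαhi FB (8.49% of all genes) or CD81+ FB (2.58%), by edgeR or DESeq2, with 1 and 0 members at an unadjusted p under 0.05. Since the intestines differed, the colon libraries were also taken alone, an alternative added after the values had been seen. There PDGFRαhi FB had 3 members called (7.97% of all genes), with *H2-Ab1* higher by 1.83 on the log2 scale (SE 0.19, edgeR adjusted p = 6.308e-06) and *Cd74* lower, at -1.86 (SE 0.52, edgeR adjusted p = 0.0409), as was *H2-Eb1*, at -1.62 (edgeR adjusted p = 0.00952). In the small intestine libraries alone (9.9% of all genes) *H2-Ab1* was at -0.57 (SE 0.41, edgeR adjusted p = 0.355). CD81+ FB of the colon had 1 member called (2.64% of all genes), *H2-Ab1* at -3.30 (SE 0.38, edgeR adjusted p = 0.000127), whereas in small intestine (3.3%) it was at 0.62 (edgeR adjusted p = 0.222). SMC had 1 of 5 members called (9.57% of all genes), *H2-Aa* at -2.68 (SE 0.92, edgeR adjusted p = 0.0434), a call that was lost without small intestine replicate 2, without either colon library, with no low-count filter, without cells with a *Ptprc* or *Tyrobp* UMI or any immune UMI, with clusters and without cells near a gate's edge. Pericytes had 0 of 5 called by either tool (9.6% of all genes) and 0 at an unadjusted p under 0.05.

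Among the remaining FB, cells with an *Fgfr2* UMI, a marker of a subset of interstitial FB, were set against those without one. *H2-Ab1* was at 21.3 and 18.8 CPM with *Fgfr2* and 11.1 and 9.83 CPM without it in colon, and at 5.91 and 4.46 against 12.9 and 5.18 CPM in small intestine, so the direction turned between the intestines. Of 5 members tested 0 were called by edgeR or DESeq2 (0.346% of all genes) and 0 had an unadjusted p under 0.05, *H2-Ab1* having a log2 fold change of 0.42 (edgeR adjusted p = 0.718). An *Fgfr2* UMI is also more likely in a deep cell.

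FB with a UMI of *Ptprc*, which encodes CD45, or of *Tyrobp*, an adaptor of myeloid and NK cells, were few, with 33 and 56 in colon and 21 and 69 in small intestine, and they were rich in class II. *Cd74* was at 123 and 48.5 CPM with such a UMI and 17.3 and 5.12 CPM without one in colon. In small intestine it was at 813 and 214 CPM with one and 27.7 and 9.34 CPM without one. Each library thus had several times more *Cd74* in these cells. *H2-Ab1* differed less in colon, at 59.8 and 64.7 against 27.2 and 22.8 CPM, than in small intestine, at 169 and 34.1 against 7.05 and 4.82 CPM. With the library as a block, 3 of 5 members tested were called (0.472% of all genes): *Cd74* at 3.90 (SE 0.19, edgeR adjusted p = 4.391e-42), *H2-Aa* at 3.20 (SE 0.35, edgeR adjusted p = 2.012e-16) and *H2-Eb1* at 2.78 (SE 0.37, edgeR adjusted p = 9.081e-11). *H2-Ab1* was at 2.23 (SE 0.72, edgeR adjusted p = 0.539) and *H2-DMa* at 1.40 (SE 0.74, edgeR adjusted p = 0.641). These p-values rest on a spread moderated across genes, and the size of the *Cd74* change varied between libraries.

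**Figure D4:**
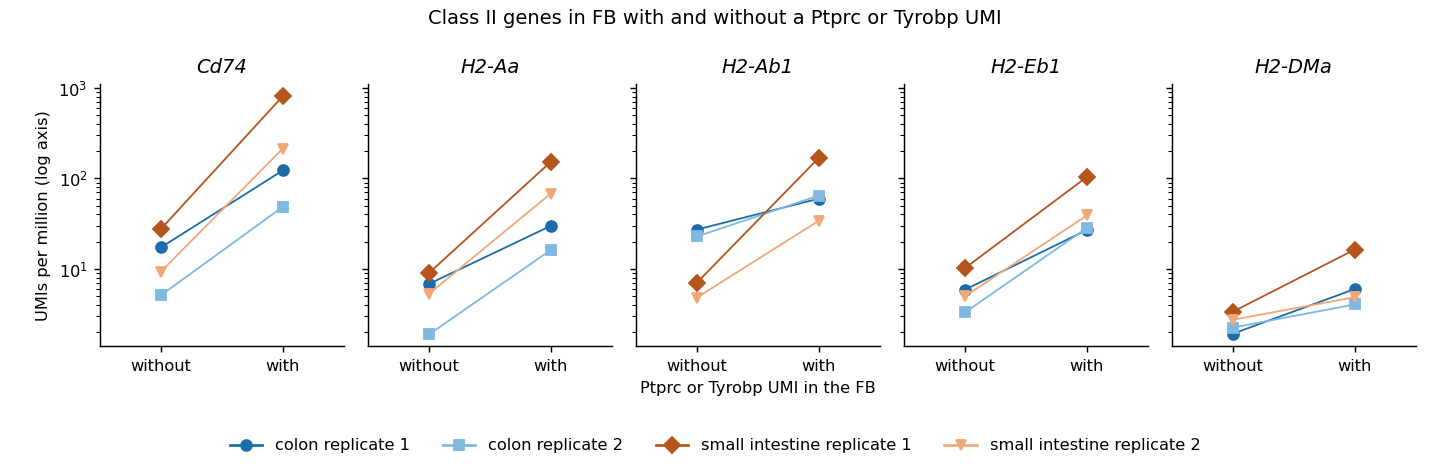
Level of 5 members (CPM, log axis) in FB without and with a *Ptprc* or *Tyrobp* UMI, 1 line for each library. *Cd74* goes from 27.7 to 813 CPM in small intestine replicate 1, and *H2-Ab1* goes from 27.2 to 59.8 CPM in colon replicate 1.

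Immune markers moved with *Cd74* in these cells. Of 13 tested genes of the immune list 9 were called higher (0.35% of all genes). *Ptprc* and *Tyrobp* are among the 9 but chose the cells, so their calls were fixed in advance and are not results. Among the others were *Fcer1g* (3.65), *C1qa* (3.33), *Csf1r* (3.74) and *Lcp1* (4.02 on the log2 scale). *Ctss*, a protease that trims the invariant chain, was the 1 called gene of the other class II pathway genes, at 4.04 (SE 0.57, edgeR adjusted p = 7.954e-10). The summed level of the 25 immune genes was 89.7 and 64.9 CPM in small intestinal PDGFRαhi FB, with 13 and 15 genes detected, and 24.2 and 15.1 CPM in colonic PDGFRαhi FB, with 14 and 16 detected. Among genes of T cells and B cells, *Cd3e*, *Cd3g* and *Ms4a1* were at 0 in PDGFRαhi FB of all 4 libraries, whereas *Trbc2*, a constant chain of the T cell receptor, was detected in all 4 and *Cd79a*, of the B cell receptor, had 1 UMI in small intestine replicate 1 and in colon replicate 2. *Tyrobp* had 5 to 7 UMIs in each library.

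Leaving out every FB with a UMI of any of these 25 genes took away most of the *Cd74* difference and left the *H2-Ab1* difference. A deep cell is more likely to hold such a UMI, so this also selects by depth. *Cd74* in PDGFRαhi FB was then at 3.17 and 2.92 CPM in colon and 5.30 and 4.27 CPM in small intestine. These small intestine values rest on 4 and 12 UMIs. *H2-Ab1* was at 50.5 and 56.9 CPM in colon, close to its level in all cells, and at 5.30 and 1.78 CPM in small intestine, from 4 and 5 UMIs. *H2-Ab1* held 86.6% and 91.8% of the 4-gene UMIs of the colonic cells, and 23.5% (6.81 to 49.9) of 17 and 16.1% (5.45 to 33.7) of 31 such UMIs in small intestine. In the remaining FB *Cd74* was at 18.7 and 5.55 CPM in colon and 15.8 and 7.54 CPM in small intestine, so that the intestines overlapped, and *H2-Ab1* was at 11.8 and 11.4 CPM in colon and 1.92 and 3.91 CPM in small intestine. Of the *H2-Ab1*+ PDGFRαhi FB of colon, 30 of 176 and 44 of 559 held an immune UMI. The remaining FB with at least 3 of the 4 genes were mostly cells with an immune UMI, 18 of 23 and 14 of 21 in small intestine and 15 of 24 and 5 of 6 in colon.

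**Figure D5:**
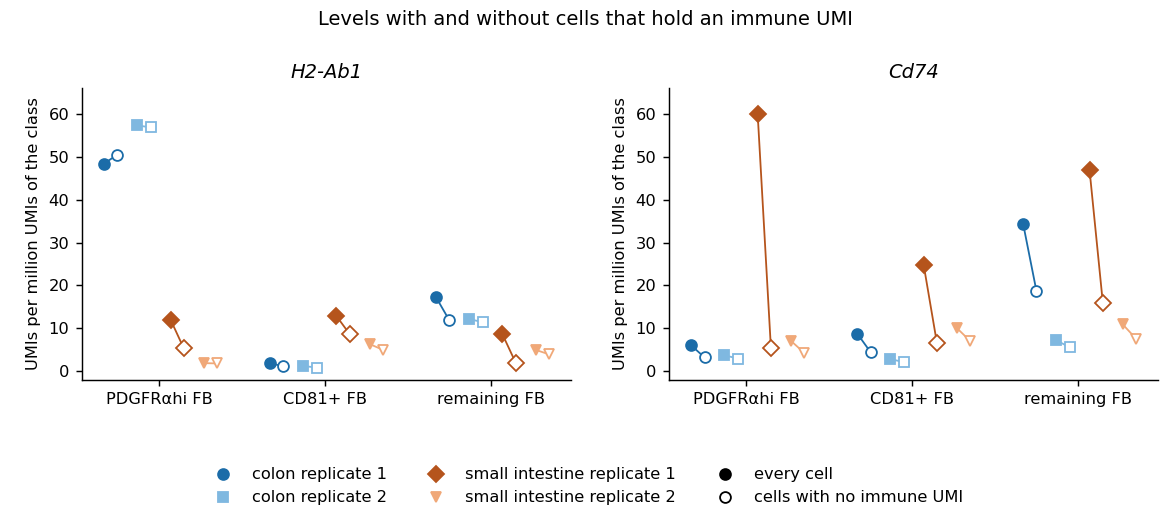
Level of *H2-Ab1* and *Cd74* (CPM) in 3 FB classes, in every cell (filled) and in cells with no UMI of the 25 immune genes (open), 1 marker shape for each library. In PDGFRαhi FB *Cd74* of small intestine replicate 1 goes from 60.1 to 5.30 CPM, while colonic *H2-Ab1* goes from 48.5 to 50.5 and from 57.4 to 56.9 CPM.

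Endothelial cells that had passed the CD31- sort, and are not stromal, showed the full class II set in small intestine. In the 350 such cells of small intestine replicate 1 *Cd74* was at 344 CPM (exact 95% Poisson interval 315 to 374), *H2-Aa* at 76.7, *H2-Ab1* at 70.5 and *H2-Eb1* at 65.5 CPM, and *Ciita* had 5 UMIs. A *Cd74* UMI was present in 19.4% of them, and 39 cells had at least 3 of the 4 chain genes, 21 of these with no immune UMI. In the 238 endothelial cells of colon replicate 1 *Cd74* was at 5.37 and *H2-Ab1* at 6.90 CPM, with 3 *Ciita* UMIs and 0 cells with 3 of the 4 genes. The other 2 libraries held 24 and 2 such cells, so the intestines could not be compared with replicates. Against the remaining FB 0 of 5 members were called by edgeR or DESeq2 and 0 had an unadjusted p under 0.05 (22.2% of all genes were called by edgeR), *Cd74* being at 1.24 (edgeR adjusted p = 0.205) and, without small intestine replicate 1, at -2.23 (edgeR adjusted p = 0.209). Without cells that held an immune UMI 3 members were called, *Cd74* at 2.50. That setting also removes endothelial cells that express *Lcp1* or *Zbtb46*, genes of the immune list that were themselves higher in endothelial cells, at 6.16 and 2.93.

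The other genes of the class II pathway are the remaining H2-M and H2-O chains, proteases, the RFX and NF-Y factors and costimulators. Of 24 listed genes 23 were in the tables and 14 or 15 passed the low-count filter in FB. Between colon and small intestine edgeR called 0 in each FB class, with 3 in PDGFRαhi FB, 0 in CD81+ FB and 0 in the remaining FB at an unadjusted p under 0.05, and DESeq2 called 1, 0 and 0 (4.56%, 1.9% and 3.25% of all genes). Their values had a median of 0.40 in PDGFRαhi FB, -0.05 in CD81+ FB and -0.04 in the remaining FB, beside medians over all genes of 0.02, -0.01 and 0.00. The largest value in PDGFRαhi FB was that of *Lgmn*, a lysosomal protease, at 1.65 (SE 0.27, edgeR adjusted p = 0.0697). Against the remaining FB, 1 of 14 tested was called in PDGFRαhi FB (8.49% of all genes). It was *Icosl*, a costimulator, at -1.98 (SE 0.21, edgeR adjusted p = 4.551e-07). In SMC 1 of 14 was called (9.57% of all genes), *Cd40*, the receptor of CD40 ligand, at -3.83 (SE 0.48, edgeR adjusted p = 2.985e-06). Of the 14, 0 were called in CD81+ FB (2.58% of all genes) and 2 were lower in pericytes (9.6%). In endothelial cells 1 was higher and 4 were lower (22.2%).

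Genes of the interferon-γ pathway and its response mostly had negative values between colon and small intestine, also in PDGFRαhi FB. Of 21 listed and tested genes 0 were called by edgeR between colon and small intestine in each FB class. In PDGFRαhi, CD81+ and remaining FB, 10, 14 and 12 of them had an unadjusted p under 0.05, against 12.5%, 8.31% and 10.3% of all genes. DESeq2 called 5, 6 and 6 of them, against 4.56%, 1.9% and 3.25% of all genes. Of the 21 genes, 6 in PDGFRαhi FB, 2 in CD81+ FB and 2 in the remaining FB had a positive log2 fold change, with medians of -0.46, -1.40 and -1.33. *Nlrc5*, the transactivator of MHC class I genes, was at -4.50 (SE 0.82, edgeR adjusted p = 0.0861) in PDGFRαhi FB. In the test of the difference between the classes 17 of 21 had a positive value and 1 was called, against 3.78% of all genes. It was *Gbp5*, an interferon-induced guanylate-binding protein, at 1.56 (SE 0.26, edgeR adjusted p = 0.000411). Endothelial cells had 5 of 21 called higher than the remaining FB, against 9.43% of all genes called higher and 22.2% called in either direction, with *Gbp4* at 4.18 and *Nlrc5* at 2.06.

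Genes next to *H2-Ab1* on chromosome 17 had values near or below 0 on the log2 scale. Within 60000 bases, *Psmb8*, a subunit of the immunoproteasome, had 991 and 1744 UMIs in colonic and 450 and 839 UMIs in small intestinal PDGFRαhi FB (log2 fold change -0.87, SE 0.26, edgeR adjusted p = 0.245). *Tap2*, a peptide transporter for MHC class I, was at -0.07 (edgeR adjusted p = 0.991). *H2-Ob* and *H2-Eb2* had 0 UMIs in this class in all 4 libraries.

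Across the 20 sums of PDGFRαhi FB, CD81+ FB, remaining FB, SMC and pericytes in the 4 libraries, *H2-Aa* and *H2-Eb1* followed *Cd74* (Pearson r of log2(CPM + 10) 0.83 and 0.73), whereas *H2-Ab1* followed neither *Cd74* (0.13) nor *H2-Eb1* (0.04). The sums share libraries and depth, so these are descriptions. Of 8169 genes with at least 100 UMIs in the stromal cells of each library, those most like the mean of the 4 genes were *Tmem150b* (0.79), *Slc35b2*, *Txndc12*, *Echdc2* (each 0.77) and *Slc35e2* (0.76). Those most like *H2-Ab1* alone were *Galk2* (0.83), *Sema3f*, *Ccdc3* (each 0.81), *Slc22a15* (0.80) and *Smox* (0.79), a list made after the members had been seen to diverge.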

How the data were processed

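Single-cell RNA-seq had been performed by the authors with droplet kits for the 3′ or the 5′ end of transcripts (which kit a library had is not given in the sources used here). Reads had been mapped by the authors to mm10 with Cell Ranger, 3.0.2 or 3.1.0 per the file headers, and their notes name Seurat 3. What they deposited are UMI counts of each gene in each barcode, not normalized. Counts per library ranged from 14341443 to 52269372.

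The members and gene lists were chosen with earlier results of these data known. Barcodes were kept from 500 genes and 1000 UMIs upward and up to 10% mitochondrial UMIs, and those with a scrublet score above 0.2 (scanpy 1.11.5, Python 3.11.15) were removed as doublets (small intestine 26 and 913, colon 45 and 535). The automatic threshold would have called 11 and 1 (small intestine) and 32 and 458 (colon), so a fixed score was used. Cells were gated by markers, without the members and without *Ptprc* and *Tyrobp*. PDGFRαhi FB needed at least 1500 CPM over their markers and CD81+ FB at least 1000 CPM, and cells within 1.25 times a gate's edge were called near it. Cells with immune and FB markers together stayed out of the stromal classes. Leiden clusters served as an alternative, and the limits of the gates were set after the marker scores had been seen.

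Sums of counts by class in each library were tested by quasi-likelihood in edgeR 4.0.16 (R 4.3.3, filterByExpr, TMM, robust fit), with DESeq2 1.42.0 as the alternative. P-values were adjusted by Benjamini-Hochberg over all genes tested. Colon was compared with small intestine without a block, with 2 residual degrees of freedom, and classes within libraries with the library as a block. All 6 members were named, and of other lists a selection of the called genes. Not-called genes with values were named after their values had been seen. Intervals are exact Poisson or Clopper-Pearson intervals (scipy 1.17.1) at 95%. Shares at 2000 UMIs were computed as the chance of at least 1 UMI after thinning. P-values rest on the spread between libraries of pooled mice as moderated across genes, and not on the spread of each gene alone. The test was tried on simulated counts with 200 changed genes.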

Additional observations from a re-analysis of the deposited data

Results flagged for a closer look

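The difference in colon effect between PDGFRαhi FB and the remaining FB was flagged for 4 genes of the members and gene lists. The flag came from a test of the difference itself, the class by intestine term of edgeR, which called 3.78% of all genes. *H2-Ab1* had a difference of 2.44, a call lost with doublets kept and with clusters, and *Gbp5* of 1.56 on the log2 scale. *Lyz2*, a lysozyme of macrophages and granulocytes, had a difference of -2.97 and *Cd52*, a surface glycoprotein of leukocytes, of -2.59. *Gbp5* itself was at -0.11 between colon and small intestine in PDGFRαhi FB (edgeR adjusted p = 0.985), so its difference lies between 2 classes and not in that class alone.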

How the results depend on the processing

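Of the counts of called members 160 stayed within 1.5 times their value under an alternative and 34 moved. Of the values of single genes 816 kept direction and side of the threshold, 29 passed it, 67 fell short of it and 13 reversed. Shares of cells moved beyond their interval in 56 and stayed within it in 88.

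Between colon and small intestine, members called went from 0 to 1 in PDGFRαhi FB with DESeq2, without cells with an immune UMI, and with clusters without such cells (added after seeing the data). In CD81+ FB they went from 0 to 2 with no low-count filter and to 1 with DESeq2. With the replicate number as a block they were 4 in PDGFRαhi FB, 2 in CD81+ FB and 1 in SMC. Calls over all genes were then 931 of 11708, 311 of 11481 and 376 of 9866. Deviations of same-numbered libraries correlated at 0.713, 0.609 and 0.770 in PDGFRαhi, CD81+ and remaining FB, but with 2 pairs, and with Cell Ranger version and depth following the number, the numbers do not establish a pairing.

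Against the remaining FB, PDGFRαhi FB had 1 member called with clusters without immune-UMI cells and 3 in colon alone, against 0, and CD81+ FB 1 in colon alone. SMC had 0 in place of 1 with no filter, without *Ptprc* or *Tyrobp* cells, without immune-UMI cells, with clusters, without cells near a gate's edge, with clusters without immune-UMI cells, and in small intestine alone, and 2 in colon alone. Endothelial cells had 1 with no filter, 3 without immune-UMI cells and 2 in colon alone. The *Ptprc* or *Tyrobp* split had 1 in place of 3 with clusters. The difference of the colon effect had 2 with no filter, and 0 with doublets kept or clusters, against 1. Leaving out each library gave 0 to 1 members in SMC, 0 to 3 in endothelial cells and 3 to 4 in the split. Between intestines and in the difference it left 1 library in an intestine, so counts of those fits are not given. The cause was not tested.

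Values that reversed in the remaining FB between intestines were those of *Cd74* (0.83 without small intestine replicate 1, 0.19 without colon replicate 2), *H2-Aa* (0.08 and 0.15) and *H2-Eb1* (0.37 and 0.07), their lowest values, without colon replicate 1, being -1.98, -1.91 and -0.95. *H2-Ab1* reversed in small intestine alone in PDGFRαhi FB (-0.57) and CD81+ FB (0.62) against the remaining FB, and in the *Fgfr2* split with clusters (-0.027). *Cd74* reversed in endothelial cells without small intestine replicate 1 (-2.23, against 2.52 without colon replicate 1), with clusters (-0.72) and in colon alone (-2.54), and in the difference of the colon effect with clusters without immune-UMI cells (0.77).

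Calls over all genes ranged from 0 to 931 over the alternatives in PDGFRαhi FB between intestines (154 as reported), 0 to 415 in CD81+ FB (26), 0 to 688 in the remaining FB (45), 0 to 376 in SMC (23) and 0 to 39 in pericytes (0). They ranged from 213 to 561 in CD81+ FB against the remaining FB (315), from 678 to 1542 in pericytes (1171), from 19 to 67 in the *Fgfr2* split (42) and from 30 to 200 in the *Ptprc* or *Tyrobp* split (58).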
